A study of Mus musculus with 4 samples.

Results

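CD8 alpha-beta T cells carry the CD8 coreceptor as a pair of an alpha chain, encoded by Cd8a, and a beta chain, encoded by Cd8b1. They were chosen by transcripts: a cell barcode was a member when it held at least 1 UMI (a counted molecule) of Cd3d, Cd3e or Cd3g summed, at least 1 UMI of Cd8b1, no UMI of Trdc and no UMI of Cd79a or Lyz2. The rule found 450 members among 14378 barcodes (3.13%), which was 4.69% of the 9594 T cells defined by the CD3 genes with no Cd79a or Lyz2. The data were 4 droplet libraries of CD45.2+ leukocytes from the intraepithelial layer of C57BL/6 mice with no infection, 1 library each of stomach, small intestine, cecum and colon. The sort was on live CD45+ cells, so T cell classes rest on transcripts alone. The labels do not give the number, age or sex of the mice, and the extraction text, identical in all 4 records, names colons only. With 1 library per tissue, tissue, mouse and library cannot be told apart, and no p-value is given between tissues. Members were compared with 2848 T cells that held Cd8a but no Cd8b1 and no Trdc UMI, called CD8 alpha-alpha-type here. Because Cd8b1, Cd8a and the other genes of the rule chose the cells, their levels describe the choice and are not tested.

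Lymphocytes of the gut epithelium are usually divided into conventional cells, which are activated in lymphoid tissue and then enter the epithelium, and natural cells, which are directed there from the thymus. CD8 alpha-beta T cells belong to the conventional kind, recognise peptides on classical MHC class I, and can stay in tissue as resident memory cells or recirculate. CD8 alpha-alpha homodimers mark many natural cells, which carry innate-type signalling adaptors such as the one encoded by Fcer1g. Itgae encodes the integrin chain CD103 that binds E-cadherin on epithelial cells, and Ccr9 encodes the receptor that draws T cells to the small intestine. Ccr7 and S1pr1 encode receptors used to enter and leave lymph nodes, and Klf2 encodes a transcription factor that maintains S1pr1.

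Cd8b1 lies on the plus strand at chr6:71322788-71337494 (GRCm38, GENCODE M21), and Cd8a starts 35933 bases past its end on the same strand, at chr6:71373427-71379173. The promoters below belong to 3 genes on which the comparison with CD8 alpha-alpha-type cells turned. Klf2 and Il7r, which encodes the interleukin-7 receptor alpha chain, were higher in the CD8 alpha-beta cells, and Fcer1g was lower. Each is 250 bases before to 50 after the RefSeq transcript start, 5′ to 3′ on the gene's strand (GRCm38.p6). The intervals are chr8:72318812-72319111 on the plus strand for Klf2, chr15:9529827-9530126 on the minus strand for Il7r and chr1:171234300-171234599 on the minus strand for Fcer1g. Capitals mark matches, on either strand, to TGTGGT (the core that Runx factors bind), CCACCC (a KLF core) or CTTTGA (a TCF or LEF core).

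Klf2: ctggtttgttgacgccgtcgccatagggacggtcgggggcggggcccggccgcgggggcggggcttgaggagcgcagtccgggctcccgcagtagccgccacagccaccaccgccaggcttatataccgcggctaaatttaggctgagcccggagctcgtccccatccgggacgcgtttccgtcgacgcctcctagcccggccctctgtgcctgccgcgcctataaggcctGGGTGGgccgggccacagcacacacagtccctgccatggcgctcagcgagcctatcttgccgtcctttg

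Il7r: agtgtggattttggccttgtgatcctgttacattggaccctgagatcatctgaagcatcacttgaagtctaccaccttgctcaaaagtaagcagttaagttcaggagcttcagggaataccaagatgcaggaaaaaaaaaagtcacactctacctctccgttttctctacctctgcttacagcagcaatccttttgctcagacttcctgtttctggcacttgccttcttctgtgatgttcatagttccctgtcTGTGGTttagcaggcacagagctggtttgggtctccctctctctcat

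Fcer1g: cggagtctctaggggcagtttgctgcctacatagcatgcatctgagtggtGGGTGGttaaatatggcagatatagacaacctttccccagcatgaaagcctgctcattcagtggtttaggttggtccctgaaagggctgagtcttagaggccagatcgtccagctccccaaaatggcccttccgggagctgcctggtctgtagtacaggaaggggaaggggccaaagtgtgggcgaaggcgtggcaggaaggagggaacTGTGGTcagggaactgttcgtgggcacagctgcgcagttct

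Klf2 held 1 KLF match, starting 19 bases before the transcript start. Il7r held 1 Runx match just past the start. Fcer1g held 1 Runx match just past the start and 1 KLF match near the upstream end. No promoter of the 3 held the TCF or LEF letters, and no matches overlapped. Of 32851 mouse promoters of this length, 16.8% held the Runx letters, 31.5% the KLF letters and 16.0% the TCF or LEF letters, so these matches are common.

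The members numbered 54 in stomach, 102 in the small intestine, 144 in the cecum and 150 in colon. They made up 16.9% of T cells in stomach (95% exact binomial interval 12.9–21.4%), 4.10% in the small intestine (3.36–4.96%), 4.19% in the cecum (3.55–4.92%) and 4.47% in colon (3.80–5.23%). Stomach stood above the other libraries, whose intervals overlapped, but it held only 320 T cells against 2487 to 3435 elsewhere. Thinned to 1000 UMIs per barcode before the rule was applied, the shares were 16.2% in stomach, 2.85% in the small intestine, 2.79% in the cecum and 2.51% in colon. Of all T cells counted as either CD8 class, members were 90.0% in stomach (79.5–96.2%), 17.8% in the small intestine (14.8–21.2%), 12.4% in the cecum (10.6–14.5%) and 9.96% in colon (8.49–11.6%). In stomach the CD8 alpha-alpha-type class was 6 cells. Summed depth of the members was 143244 UMIs in stomach, 314597 in the small intestine, 309812 in the cecum and 525726 in colon, with medians of 2496, 2126, 1821 and 2985 UMIs per cell in that order. The whole libraries held 8568438 to 12988676 UMIs, and any pair of libraries shared 1 to 6 barcodes.

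Membership often rested on a single molecule outside the stomach. Exactly 1 Cd8b1 UMI was held by 5 of 54 members in stomach (9.26%), 42 of 102 in the small intestine (41.2%), 95 of 144 in the cecum (66.0%) and 87 of 150 in colon (58.0%). The median was 5 Cd8b1 UMIs per member in stomach, 2 in the small intestine and 1 in both cecum and colon. Just outside the rule, with 0 Cd8b1 UMIs, were the 6, 471, 1015 and 1356 CD8 alpha-alpha-type cells of stomach, small intestine, cecum and colon, some of which may carry a Cd8b1 transcript that was not sampled. As a measure of background, Trdc-positive T cells with no UMI of Siglech (a plasmacytoid dendritic cell gene) held a Cd8b1 UMI in 0 of 49 cells in stomach (a limit of 6.12% at 3 counts), 61 of 1667 in the small intestine (3.66%), 9 of 513 in the cecum (1.75%) and 18 of 912 in colon (1.97%). The same share among Trdc-negative T cells was 19.9% in stomach, 11.6% in the small intestine, 4.87% in the cecum and 6.08% in colon, above the Trdc-positive cells in each library. Barcodes with Siglech, whatever their other transcripts, often held Cd8b1 themselves outside the stomach. Shares were 13.3% in stomach (of 15), 59.2% in small intestine (of 233), 71.4% in cecum (of 28) and 60.7% in colon (of 28). B cells without Siglech held Cd8b1 in 0 of 113, 0 of 190, 0 of 530 and 1 of 174 cells in the same order of tissues, the zeros allowing up to 2.65%, 1.58% and 0.566% at 3 counts. Values for members with at least 2 Cd8b1 UMIs are therefore set beside many of the results they move.

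**Figure D1:**
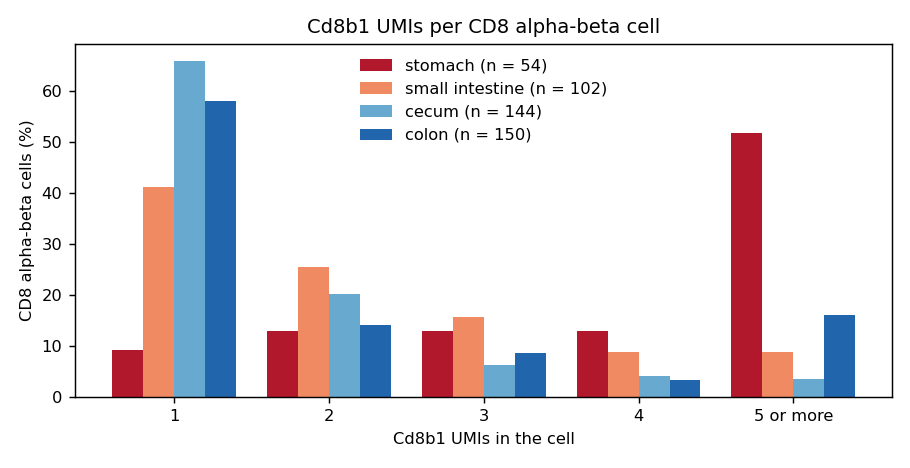
Share of CD8 alpha-beta cells (%, vertical) holding 1, 2, 3, 4 or at least 5 Cd8b1 UMIs (horizontal), with 1 bar per library and n as the number of members. A single UMI was most common in the cecum (66.0%) and colon (58.0%), while only 9.26% of stomach members held just 1.

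Without thinning, other markers of alpha-beta T cells were detected in most members. Cd8a had a UMI in 81.5% of members in stomach, 88.2% in the small intestine, 68.8% in the cecum and 85.3% in colon. Trbc1 or Trbc2, the constant segments of the beta chain, had one in 96.3%, 97.1%, 97.2% and 99.3% in the same order. Trac, of the alpha chain, had one in 90.7%, 82.4%, 76.4% and 95.3%. Cd4 had a UMI in 0 of 54 stomach members (a limit of 5.56% at 3 counts), 5.88% in the small intestine, 1.39% in the cecum and 2.67% in colon. With the members thinned, the Cd8a shares were 46.3%, 69.6%, 51.0% and 65.1% in the same order of tissues. Those of Trac were then 74.1%, 64.7%, 56.6% and 69.1%. The order of the tissues for these genes thus changed with thinning. Some members carried transcripts of other lineages. In the small intestine 11 of 102 members (10.8%) held Siglech, and 1 member held 2701 of the 2808 UMIs of plasma cell markers found in all members there. In the cecum 1 member held 546 of 585 UMIs of the mast cell markers. The Siglech-positive members of small intestine held 64 of that library's 80 Ly6c2 UMIs. Leaving out barcodes with Siglech, or with at least 10 UMIs of plasma or mast markers, removed 0 members in stomach, 12 in the small intestine, 3 in the cecum and 3 in colon. In stomach it left 5 of the 6 CD8 alpha-alpha-type cells. Those 6 held 125 UMIs of the mast markers (6898 CPM, against 363 CPM in stomach members). The main results that rest on such barcodes are given with and without them, and the second kind is called a value without other lineages.

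The members of the 4 libraries differed in Itgae, Gzma, Ccr9 and Ly6c2 once every cell was thinned to 1000 UMIs. Itgae had a UMI in 11.1% of stomach members (4.19–22.6%), 46.1% in the small intestine (36.2–56.2%), 15.4% in the cecum (9.90–22.4%) and 15.4% in colon (10.0–22.3%). Small intestine was the highest, its interval clear of the other libraries. In CD8 alpha-alpha-type cells the Itgae share was 55.4% in the small intestine, 16.3% in the cecum and 23.2% in colon, and in B cells it was at most 2.68%. Gzma, a granule protease, had a UMI in 1.85% of stomach members, 51.0% in the small intestine (40.9–61.0%), 5.59% in the cecum and 4.03% in colon. B cells of small intestine, with a median depth of 10418 UMIs before thinning, held Gzma in 6.19%, which is a measure of free transcript in that library. Ccr9 followed the same order of highest library, with 1.85% in stomach, 41.2% in the small intestine, 11.9% in the cecum and 5.37% in colon, and 37.8% in the small intestine without other lineages.

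Ly6c2, a surface protein of memory and effector CD8 T cells, was highest in stomach and lowest in the small intestine. It had a UMI in 61.1% of stomach members (46.9–74.1%), 7.84% in the small intestine, 18.2% in the cecum and 16.1% in colon, and 2.22% of small intestine members without other lineages. The interval for stomach lay above all others. A UMI of Ccr7 or Lef1, the second a transcription factor of naive and central memory cells, was held by 18.5% of stomach members (9.25–31.4%), 7.84% in the small intestine (3.45–14.9%), 25.9% in the cecum (18.9–33.9%) and 26.2% in colon (19.3–34.0%). These genes are expressed by B cells, which held them in 37.5% in stomach, 5.24% in the small intestine, 59.0% in the cecum and 54.5% in colon. Among colon members with at least 2 Cd8b1 UMIs the share was 39.7% (27.6–52.8%), against 16.3% (9.20–25.8%) among those with 1. Members with a UMI of Itgae and none of Ccr7 or Lef1 made up 7.41% in stomach, 44.1% in the small intestine, 11.2% in the cecum and 15.4% in colon. The reverse pattern was found in 14.8%, 5.88%, 21.7% and 26.2% in that order. Both kinds were held together by 3.70%, 1.96%, 4.2% and 0% of members, and the rest, 48.0% to 74.1%, held neither at this depth.

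Fcer1g varied with Cd8b1 UMIs as well as with tissue. It had a UMI in 9.26% of members in stomach, 23.5% in the small intestine, 41.3% in the cecum and 36.9% in colon, against 33.3% of 6, 80.3%, 64.7% and 73.8% of CD8 alpha-alpha-type cells. Colon members with at least 2 Cd8b1 UMIs held it in 17.5% (9.05–29.1%), and those with 1 in 51.2% (40.1–62.1%). Cecum showed the same order, with 28.6% (16.6–43.3%) and 47.9% (37.5–58.4%). In stomach, B cells held Fcer1g in 29.5%, more than the members.

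**Figure D2:**
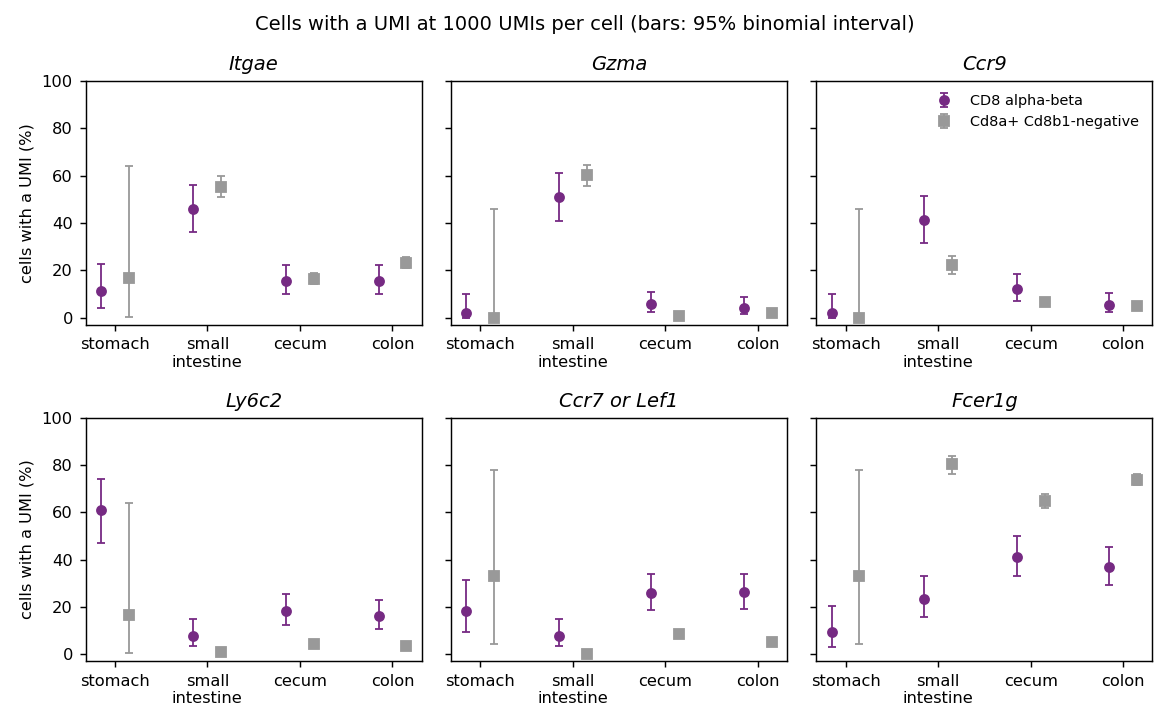
Share of cells with at least 1 UMI (%, vertical) after thinning to 1000 UMIs per cell, by library (horizontal), for 6 transcripts or groups. Circles are CD8 alpha-beta cells and squares CD8 alpha-alpha-type cells, with 95% exact binomial intervals. Itgae, Gzma and Ccr9 peak in the small intestine and Ly6c2 in stomach, and Fcer1g is lower in CD8 alpha-beta than in alpha-alpha-type cells of small intestine, cecum and colon.

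For levels, UMIs were summed over the members of each library and scaled to the same total (CPM), with exact Poisson intervals. Ratios have exact conditional binomial intervals. A gene was counted as higher or lower at a ratio of at least 1.5 with a 95% interval that excluded 1, among genes with at least 50 CPM in either library and 20 UMIs in total. The intervals cover counting error only, not the spread between cells or mice. A UMI count of 0 entered at 3 counts, and such ratios are bounds. Most genes are also set beside 2 other cell sets of the same libraries, B cells and T cells with no Cd8a, Cd8b1 or Trdc UMI, here called other T cells. Neither set was cleared of other lineages, and the B cells were unlike between libraries. Their median depth was 2422 UMIs in stomach, 10418 in the small intestine, 1247 in the cecum and 1939 in colon. In stomach the mast cell gene Mcpt2 had 11273 CPM in B cells and 9225 CPM in other T cells, against 182 CPM in members. In bulk sums, fewer expressing cells and less RNA per cell cannot be told apart.

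Stomach members had more memory and effector transcripts than small intestine members and fewer Gzma, Gzmb and Ccr9 transcripts. Of 4423 genes measured, 456 were higher in stomach (10.3%) and 652 lower (14.7%), and the median log2 ratio over all of them was −0.10. Of the 18 measured memory and effector genes 15 were higher and none lower, at a median log2 ratio of 1.7. Other T cells were higher in stomach for all 15 of those genes and B cells for 12. S100a4, a calcium-binding protein of motile cells, reached 1606 CPM in stomach members against 35.0 CPM in the small intestine members, 45.9-fold higher (25.2–93.3), and 24.8-fold among members with at least 2 Cd8b1 UMIs. Other T cells had 1345 and 67.4 CPM of it in stomach and small intestine, and B cells 326 and 20.2 CPM, so those cells were higher in stomach too. Ctla2a, which encodes a cysteine protease inhibitor, was 52.1-fold higher (2318 and 44.5 CPM in stomach and small intestine members), with 1414 and 127 CPM in other T cells.

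Ly6c2 had 1780 CPM in stomach members and 254 CPM in the small intestine members, a ratio of 7.0 (5.43–9.12) that was 32.3 without other lineages. B cells were lower in stomach for this gene, but the B cells of the 2 libraries were unlike, with median depths of 2422 and 10418 UMIs. Whether the Ly6c2 difference is particular to T cells was not tested. Lgals1, which encodes galectin-1, had 1305 CPM in stomach against 289 CPM in the small intestine (4.51-fold, 3.49–5.86, and 9.33-fold without other lineages), and Cxcr3, a chemokine receptor of type 1 effector cells, 314 against 98.5 CPM (3.19-fold, 1.97–5.21). Klrk1, which encodes the activating receptor NKG2D, had 489 CPM in stomach and 6.36 CPM in the small intestine, from 70 and 2 UMIs, a ratio of 76.9 (20.5–647). Without thinning, cells with a Klrk1 UMI were 44.4% in stomach and 1.96% in the small intestine. Other T cells had 562 and 81.5 CPM of Klrk1 in stomach and small intestine, and B cells 16.7 and 3.45 CPM, both higher in stomach. Ifng, the type 1 cytokine, had 852 CPM in stomach and 82.6 CPM in the small intestine (10.3-fold, 6.71–16.4), and Tnf 133 and 9.54 CPM (13.9-fold, and 7.73-fold with at least 2 Cd8b1 UMIs). Ifng was higher in stomach in other T cells (674 and 295 CPM) and B cells (50.1 and 1.72 CPM) too. Dapl1, a gene of memory and naive CD8 T cells, was 24.9-fold higher (237 and 9.54 CPM, and 12.7-fold with at least 2 Cd8b1 UMIs), but its 34 UMIs came from 13.0% of the stomach members.

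Transcripts of the dissociation and immediate early list also ran higher in stomach, 20 of 25 with 2 lower, at a median log2 ratio of 1.2. They were higher in other T cells for 16 of those genes and in B cells for 17. Dnajb1, a heat-shock co-chaperone, had 3155 CPM in stomach and 413 CPM in the small intestine (7.64-fold, 6.27–9.35). In B cells it had 1709 and 324 CPM. The part that tissue handling has in the stomach differences was not tested.

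Lower in stomach members were Gzma and Ccr9. Gzma had 433 CPM in stomach, all from 7.41% of cells, against 12263 CPM in the small intestine (28.3-fold lower, 22.1–37.0), and Gzmb, granzyme B, 237 against 1850 CPM. Ccr9 had 1 UMI in stomach (6.98 CPM) against 205 in the small intestine (652 CPM), a ratio of 0.0107 (0.00027–0.0604, and 0.0161 without other lineages), with 50.2% of the small intestine UMIs in barcodes of other lineages. Itgae had 105 CPM in stomach and 613 CPM in the small intestine, a ratio of 0.171 (0.0937–0.289). Other T cells were lower in stomach for Gzma, Gzmb, Ccr9 and Itgae as well. Of all 11 measured homing and adhesion genes 6 were higher in stomach and 1 lower, at a median log2 ratio of 0.86, and Ccr9 was the lower one. Of 12 measured natural intraepithelial genes 7 were lower and 3 higher in stomach, at a median log2 ratio of −1.5. Ikzf2, the transcription factor Helios, had 6.98 CPM in stomach and 264 CPM in the small intestine, while other T cells did not differ for it past the limits used. Tyrobp, an adaptor of activating receptors, had 112 against 1430 CPM, a ratio of 0.0781 that was 0.280 without other lineages. Of 9 proliferation genes, 5 were lower in stomach and none higher, among them Mki67 (34.9 and 248 CPM) and Top2a (14.0 and 213 CPM).

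The remaining genes of largest difference divided by source. Among those higher in stomach were Ctla2b, S100a6, Sema4a and Wdr95 (28.6-, 30.3-, 40.6- and 29.6-fold), Wdr95 with no difference past the limits in other T cells. S100a6 was 19.9-fold and Wdr95 15.7-fold higher with at least 2 Cd8b1 UMIs, and S100a6 was 65.3-fold higher without other lineages. Among those lower, Hist1h2ac (0 UMIs in stomach, at least 21.4-fold) and Ncf1 (at least 11.4-fold) were spread over 16.7% and 33.3% of small intestine members. Siglech, Ly6d, Mpeg1, Cox6a2, Ccnd1 and Cybb had 94.3% to 100% of their small intestine UMIs in barcodes of other lineages and dropped out of the measurement without them. H2-Aa, an MHC class II gene (34.9 and 985 CPM), was possible free RNA, a name used here where the members' level was below 20% of the level in B cells, myeloid cells or other non-T cells of that library.

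Small intestine members had more granzyme, Itgae and Ccr9 transcript than colon members and less of the recirculation genes. Of 4705 genes 571 were higher in the small intestine (12.1%) and 472 lower (10.0%), and the median log2 ratio over all of them was −0.0092. Gzma had 12263 CPM in the small intestine and 512 CPM in colon (24.0-fold, 21.2–27.2). The ratio was 27.5 without other lineages and 12.5 among members with at least 2 Cd8b1 UMIs, and other T cells had 12926 and 353 CPM. Of 13 cytotoxic granule genes, 7 were higher and 1 lower, with 5 of the 7 higher in other T cells too. Gzmb had 1850 and 375 CPM (4.94-fold), Ccl5, a chemokine stored with granules, 14657 and 5649 CPM (2.59-fold), and Gzmk 143 and 13.3 CPM (10.7-fold, and 6.54-fold with at least 2 Cd8b1 UMIs) in the small intestine and colon. Ctsw, cathepsin W, was the lower gene, with 620 CPM in the small intestine against 1265 CPM in colon.

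Ccr9 had 652 CPM in the small intestine and 93.2 CPM in colon (6.99-fold, 5.10–9.75), and 8.80-fold without other lineages. Itgae had 613 and 207 CPM (2.96-fold, 2.33–3.78). The chemokine gene Ccl4 had 1052 and 70.4 CPM (14.9-fold, 10.6–21.6), with 42.6% of its small intestine UMIs in barcodes of other lineages and a ratio of 11.9 without them. Other T cells had 798 and 62.9 CPM of Ccl4 and B cells 151 and 73.9 CPM, both higher in the small intestine. Of 19 interferon response genes, 10 were higher in the small intestine and none lower, at a median log2 ratio of 0.72. Other T cells were higher for 9 of these and B cells for 1. Gbp2, an interferon-induced GTPase, had 105 CPM in the small intestine and 20.9 CPM in colon (5.01-fold), and Isg15, an interferon-induced modifier protein, 159 and 45.7 CPM (3.48-fold). Bst2 had 693 and 118 CPM, and its ratio of 5.88 was 0.867 without other lineages. Lag3, an inhibitory receptor, had 191 and 26.6 CPM (7.16-fold, 3.96–13.9), and Ctla4 334 and 89.4 CPM (3.73-fold). Among members with at least 2 Cd8b1 UMIs Lag3 was 22.2-fold, Ctla4 2.08-fold and Mki67 39.7-fold higher. Of 10 proliferation genes, 6 were higher, with Mki67 at 248 and 41.8 CPM (5.92-fold) and Ube2c at 76.3 and 1.90 CPM, from 24 and 1 UMIs.

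Of 16 recirculation genes, 9 were lower in the small intestine and none higher, at a median log2 ratio of −1.4. All 9 were lower in other T cells and 6 in B cells. Klf2 had 531 CPM in the small intestine and 1809 CPM in colon (3.41-fold lower, 2.89–4.04). B cells had 1141 and 3710 CPM of it and other T cells 411 and 1600 CPM in the small intestine and colon. The B cells of these 2 libraries were unlike in other ways, with H2-Aa at 448 and 7614 CPM. Whether 1 shift ran through the cell sets was not tested. S1pr1 had 19.1 CPM in the small intestine, from 6 UMIs, and 232 CPM in colon (12.2-fold lower, 5.43–33.8). Lef1 had 57.2 against 179 CPM and Tcf7, another transcription factor of naive and memory cells, 102 against 327 CPM. Lef1 was 5.61-fold lower with at least 2 Cd8b1 UMIs and 3.13-fold lower among all members. Ccr7, at 50.9 against 177 CPM, was possible free RNA by the 20% rule.

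All 6 measured NK-type receptor genes were lower in the small intestine, and all 6 were lower in other T cells. Klrd1, the CD94 chain, had 375 CPM in the small intestine and 981 CPM in colon, a ratio of 0.382 (0.310–0.468), and the Ly49 gene Klra6 had 31.8 and 219 CPM (6.88-fold lower). Klra3 (0 UMIs, at least 6.98-fold lower) and Klrk1 (13.8-fold lower) were also named. Only 2 NK-type genes could be measured with at least 2 Cd8b1 UMIs, and both were lower. At that setting 371 of all 4106 genes were higher and 324 lower. Of 14 natural intraepithelial genes, 5 were lower and 2 higher, against 1 lower and 2 higher of 9 with at least 2 Cd8b1 UMIs. Of these, Spry2, an inhibitor of receptor tyrosine kinase signalling, had 25.4 and 192 CPM (7.55-fold lower, and 18.8-fold with at least 2 Cd8b1 UMIs), and Tyrobp had 1430 and 331 CPM (4.32-fold higher, 2.03 without other lineages). Id3, Lmna, Sox4 and Dapl1 completed the named lower genes, with Lmna at 0 UMIs in the small intestine. Sh3bgr, Ppfia4, Upb1, Cybb, Alox5ap and Cox6a2 were named as higher, but 90.2% to 100% of their small intestine UMIs lay in barcodes of other lineages. Cbfa2t3 had a ratio of 27.6, of 19.7 without them and of 7.79 with at least 2 Cd8b1 UMIs. Lmna, Klra3, Klrk1, Sox4 and Ube2c could not be measured with at least 2 Cd8b1 UMIs. H2-Aa, higher in the small intestine, and S100a6, lower there, were possible free RNA.

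Cecum and colon members were the most alike of the compared pairs by count. Of 4473 genes 263 were higher in the cecum (5.88%) and 268 lower (5.99%), at a median log2 ratio of 0.059. With the median ratio set to 1 the counts were 199 higher and 321 lower. Ccl4 had 442 CPM in the cecum against 70.4 CPM in colon (6.28-fold, 4.34–9.30, and 9.6-fold with at least 2 Cd8b1 UMIs). Without thinning, 10.4% of cecum and 12.7% of colon members held a UMI of it, at median depths of 1821 and 2985 UMIs. Ifng had 387 and 97.0 CPM (3.99-fold, 2.85–5.66), in 13.9% and 8.67% of members without thinning. Among members with at least 2 Cd8b1 UMIs the Ifng ratio was 1.41. Other T cells did not differ for Ifng past the limits (183 and 198 CPM in the cecum and colon). Of 25 dissociation and immediate early genes, 11 were higher in the cecum and none lower, 5 of them higher in other T cells and none in B cells. With at least 2 Cd8b1 UMIs, 2 of the 25 were higher, against 133 of all 3339 genes, and Hspa1a was not one of the 2. Hspa1a, a heat-shock protein, had 1446 CPM in the cecum and 856 CPM in colon (1.69-fold), and Junb, a transcription factor of the AP-1 family, 4971 and 3207 CPM (1.55-fold).

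Ctla4 and Pdcd1, inhibitory receptors of activated T cells, were higher in the cecum (203 and 89.4 CPM, and 67.8 and 26.6 CPM), as they were in other T cells. Neither call held with at least 2 Cd8b1 UMIs, where Ctla4 had a ratio of 1.22 and Pdcd1 could not be measured. Recirculation genes were close between these tissues, with 2 of 17 lower in the cecum and none higher. Klf2 had 1459 CPM in the cecum and 1809 CPM in colon, and was counted as lower in the cecum with at least 2 Cd8b1 UMIs (1.84-fold). The lower genes of cecum included transcripts that were lower in other T cells and in B cells alike. Rn18s had 2192 and 5231 CPM in the cecum and colon members, 1796 and 3806 CPM in B cells and 2344 and 4988 CPM in other T cells. Tomm7, Mir682, Atp5e, Polr2l, Dleu2 and Smim27 did the same. Klra5, a Ly49 gene, had 9.68 and 85.6 CPM (8.84-fold lower, 2.84–44.5), and was lower in other T cells as well (61.3 and 128 CPM). Cox7a2 and Rnps1 were also lower, and Stard10, Med24, Dnaja4, Hes1, Yipf3, Chchd10, Gtf2b and Cited2 higher, at 2.04- to 6.79-fold. Stard10, Med24, Dnaja4, Hes1, Klra5, Cox7a2, Polr2l, Rnps1 and Smim27 could not be measured with at least 2 Cd8b1 UMIs. H2-Eb2 was possible free RNA.

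Stomach members set against colon members again had more memory and effector transcripts. Of 4404 genes 380 were higher in stomach (8.63%) and 566 lower (12.9%), and the median log2 ratio over all of them was −0.091. Of 17 memory and effector genes, 15 were higher and 1 lower, at a median log2 ratio of 1.6, with 12 of the 15 higher in other T cells and 12 in B cells. Ly6c2 had 1780 CPM in stomach and 282 CPM in colon (6.32-fold, 5.14–7.80). In other T cells it had 423 and 439 CPM and in B cells 354 and 367 CPM, neither past the limits, although the difference between the cell sets was not itself tested. S100a4 (18.8-fold), Ctla2a (13.7-fold), Ctla2b (8.48-fold) and S100a6 (6.93-fold) were higher in stomach in all 3 cell sets, S100a4 by 12.3-fold and Ctla2b by 12.8-fold with at least 2 Cd8b1 UMIs. Ccr2, a chemokine receptor of inflammatory cells, had 216 and 20.9 CPM (10.3-fold, and 21.1-fold without other lineages). Wdr95 had 188 and 9.51 CPM.

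Ifng had 852 CPM in stomach and 97.0 CPM in colon (8.78-fold, 6.28–12.4), and Ccl4 761 and 70.4 CPM (10.8-fold). These were 4.06-fold and 5.48-fold with at least 2 Cd8b1 UMIs. Other T cells had 674 and 198 CPM of Ifng and 1251 and 62.9 CPM of Ccl4 in stomach and colon. B cells had 50.1 and 0 CPM of Ifng and 701 and 73.9 CPM of Ccl4, so both cell sets were higher in stomach too. Of 14 cytotoxic granule genes, 7 were higher in stomach and 2 lower. Prf1, the pore-forming protein perforin, had 112 and 13.3 CPM (8.39-fold, 3.27–24.1), from 16 and 7 UMIs and not measurable with at least 2 Cd8b1 UMIs, and Ccl5 14905 and 5649 CPM (2.64-fold). Other T cells were lower in stomach for Ccl5. Gzmb, one of the lower genes, had 237 CPM in stomach against 375 CPM in colon. The retention genes were mixed, 5 higher and 6 lower of 18, against 7 higher and 2 lower of 17 with at least 2 Cd8b1 UMIs. At that setting 256 of all 3427 genes were higher and 345 lower. Cxcr6, a receptor of resident memory cells, had 649 and 145 CPM (4.49-fold, 3.28–6.16, and 2.08-fold with at least 2 Cd8b1 UMIs), and Ahr, the aryl hydrocarbon receptor needed by intraepithelial lymphocytes, 14.0 and 320 CPM (22.9-fold lower, 6.24–191). The heat-shock gene Dnajb1 had 3155 and 487 CPM, and 19 of 25 dissociation and immediate early genes were higher with 3 lower, 17 of the 19 in other T cells and 10 in B cells.

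Of 13 natural intraepithelial genes, 9 were lower in stomach than in colon and 2 higher, at a median log2 ratio of −1.8. Other T cells were lower for 4 of the 9 and B cells for 1. Among members with at least 2 Cd8b1 UMIs 5 of 8 were lower and 3 higher, against 345 and 256 of all 3427 genes. Ikzf2 had 1 UMI in stomach (6.98 CPM) and 326 in colon (620 CPM), a ratio of 0.0113 (0.000284–0.0632), in 1.85% of stomach and 59.3% of colon members. Other T cells had 308 and 783 CPM. Fcer1g had 223 and 907 CPM, a ratio of 0.246 (0.166–0.352, and 0.571 with at least 2 Cd8b1 UMIs), and other T cells were higher in stomach for it. Those stomach cells were not cleared of mast cell transcript, with Mcpt2 at 9225 CPM against 182 CPM in members. Of 6 NK-type receptor genes, 5 were lower (1 of 3 with at least 2 Cd8b1 UMIs), among them Klra6 and Klrb1a at 0 UMIs in stomach, while Klrk1 had 489 and 87.5 CPM (5.59-fold higher). Other T cells were higher in stomach for Klrk1 too, and lower for 4 of the 5 lower genes. Capn3, a calpain protease gene, had 0 UMIs in stomach and 185 CPM in colon. Scand1, Taf10, H2afj, Smap1 and Ssbp4 were 10.4-fold or more lower in stomach, or at least 6.27-fold for Ssbp4 at 0 UMIs. All 5 were lower in B cells and other T cells too, Scand1 with 22.3 and 342 CPM in B cells of stomach and colon. Mcpt2, a mast cell protease (182 and 0 CPM), and Cebpb were possible free RNA.

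**Figure D3:**
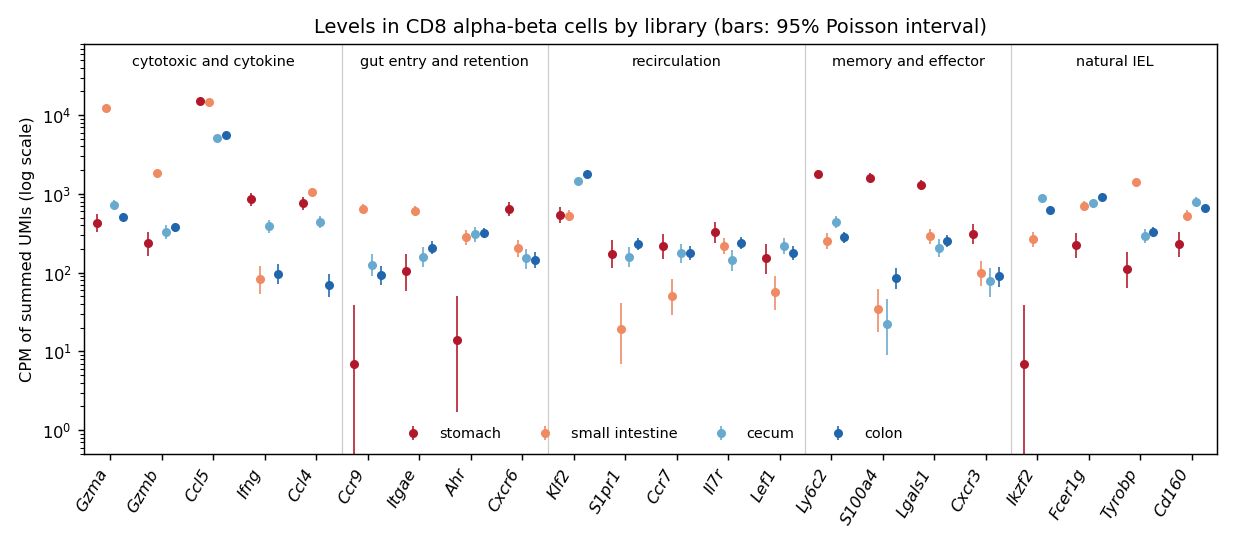
Level in CD8 alpha-beta cells (CPM of summed UMIs, log scale, vertical) of 22 genes in 5 groups (horizontal), with 1 point per library and 95% Poisson intervals, which cover counting error only. Small intestine is highest for Gzma (12263 CPM), Ccr9 and Itgae, stomach for Ly6c2 (1780 CPM), S100a4 and Lgals1 and lowest for Ikzf2, and cecum and colon are highest for Klf2.

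The comparison with CD8 alpha-alpha-type cells could be tested, since each library held both classes. UMIs were summed per class and library, and 6516 genes were fitted with edgeR's quasi-likelihood test, library as a block and Benjamini-Hochberg adjustment over all genes. Genes of the rule were left out. The test called 103 genes higher in CD8 alpha-beta cells (1.58%) and 29 lower (0.445%), and the median log2 ratio of all genes was 0.014. DESeq2 called 127 higher and 15 lower. Of the called genes, 70 were higher and 13 lower in all 4 libraries. Without the colon library 32 were called higher and 0 lower, and without stomach, where the CD8 alpha-alpha-type profile was 6 cells and 18120 UMIs, 198 and 88. Without the small intestine library the test called 68 and 10, and without cecum 74 and 17. All calls of lower genes were thus lost without the colon library.

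Recirculation genes formed the largest group of higher genes, with 10 of 15 fitted genes higher, none lower and a median log2 ratio of 1.5. Klf2 had 538, 531, 1459 and 1809 CPM in CD8 alpha-beta cells of stomach, small intestine, cecum and colon, against 166, 124, 563 and 350 CPM in CD8 alpha-alpha-type cells. It was higher in every library (log2 fold change 1.98 ± 0.18 SE, edgeR adjusted p = 6.96e-06). Il7r had 328, 219, 145 and 238 CPM against 166, 44.7, 27.2 and 16.6 CPM in the same order (2.90 ± 0.27, edgeR adjusted p = 6.96e-06). In stomach that rests on 47 UMIs and 3 UMIs. Ccr7 had 216, 50.9, 178 and 177 CPM against 166, 5.06, 18.1 and 6.09 CPM (3.88 ± 0.40), and S1pr1 175, 19.1, 158 and 232 CPM against 110, 2.53, 44.4 and 39.7 CPM (2.26 ± 0.22). Both passed edgeR's test at an adjusted p of 9.58e-06. Lef1, at a log2 fold change of 1.65 ± 0.35, was higher in the small intestine, cecum and colon and lower in stomach (154 against 552 CPM). Ms4a4b (1.82 ± 0.16), Ms4a6b (1.45 ± 0.14), Klf3 (1.54 ± 0.20), Satb1 (0.83 ± 0.17) and Ramp1 (1.71 ± 0.30) made up the rest. Without the colon library Lef1, Klf3, Satb1 and Ramp1 were not called (edgeR adjusted p = 0.821, 0.101, 0.736 and 0.284 in that order), and without cecum neither were Lef1 (0.16) and Satb1 (0.324).

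T cell receptor signalling and costimulation genes followed, with 7 of 18 higher and none lower. Cd5, which dampens receptor signals and is low on natural cells, had 209, 98.5, 113 and 78.0 CPM in CD8 alpha-beta cells against 221, 27.8, 30.1 and 12.2 CPM in CD8 alpha-alpha-type cells of stomach, small intestine, cecum and colon. Its log2 fold change was 2.08 ± 0.26 (edgeR adjusted p = 0.000126). In stomach the CPM ran slightly the other way, on 30 UMIs and 4 UMIs. CPM leave out the scaling factors of the fit, 0.913 and 1.41 for these 2 stomach profiles. Cd28, the costimulatory receptor, had 796, 280, 465 and 264 CPM against 331, 62.4, 189 and 83.4 CPM (1.71 ± 0.16, edgeR adjusted p = 9.84e-06), higher in all 4. Cd6 (2.09 ± 0.21), Cd2 (1.14 ± 0.19), Lat (1.31 ± 0.15), Thy1 (1.14 ± 0.20) and Themis (1.5 ± 0.34) were also called. Without colon, Cd2, Cd5 and Thy1 were not called (edgeR adjusted p = 0.138, 0.0593 and 0.315), nor was Themis without small intestine (0.375) or cecum (0.0503). Receptor constant genes were not called, with log2 fold changes of 0.06 ± 0.15 for Trac and −0.16 ± 0.14 for Trbc1.

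Of 16 memory and effector genes, 6 were higher and none lower. Ly6c2 had 1780, 254, 442 and 282 CPM in CD8 alpha-beta cells against 386, 31.2, 109 and 64.2 CPM in CD8 alpha-alpha-type cells (2.37 ± 0.18, edgeR adjusted p = 2.3e-06, and 2.09 without other lineages). Lgals1 had 1305, 289, 207 and 251 CPM against 662, 56.5, 48.2 and 51.2 CPM (2.18 ± 0.16, edgeR adjusted p = 2.3e-06). Ifng, of the type 1 cytokine list, had 852, 82.6, 387 and 97.0 CPM against 331, 33.7, 59.2 and 24.6 CPM and was higher in each library (2.13 ± 0.22, edgeR adjusted p = 1.83e-05). S100a6 (1.65 ± 0.15), S100a4 (1.41 ± 0.25), Cd44 (1.03 ± 0.20) and Ahnak (0.82 ± 0.19) were called as well, and without other lineages Cd44 and Ahnak were not called (edgeR adjusted p = 0.131 and 0.284). Without colon, S100a4, Cd44 and Ahnak were not called (0.432, 0.355 and 0.736), and without small intestine Cd44 and Ahnak were not (0.101 and 0.206). Ahnak was also lost without cecum (0.258). Of 11 homing and adhesion genes, 5 were higher (Ccr9, Cxcr4, Itga4, Itgal and Gpr183). Gpr183, an oxysterol receptor, had 482, 178, 194 and 139 CPM against 276, 41.3, 51.1 and 42.0 CPM (1.88 ± 0.17). Ccr9 was called at 0.91 ± 0.19 (edgeR adjusted p = 0.0145) and not without other lineages (0.44, edgeR adjusted p = 0.379). It was also not called without small intestine, cecum or colon (edgeR adjusted p = 0.161, 0.118 and 0.526), and nor was Cxcr4 (0.108, 0.0614 and 0.301). Itga4 was not called without small intestine (edgeR adjusted p = 0.0578) or colon (0.256), nor Itgal without colon (0.259).

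Among named genes the largest log2 fold change was that of Cmah, which encodes an enzyme of sialic acid synthesis, with 133, 130, 58.1 and 51.4 CPM in CD8 alpha-beta cells against 55.2, 5.06, 4.30 and 2.31 CPM in CD8 alpha-alpha-type cells of stomach, small intestine, cecum and colon. It was higher in all 4 libraries (4.24 ± 0.34, edgeR adjusted p = 2.52e-06). In stomach that rests on 19 UMIs and 1 UMI. Ly6a, the surface protein Sca-1, was higher by 3.62 ± 0.37, Gzmk by 2.82 ± 0.50 (not called without colon, edgeR adjusted p = 0.127), Adgre5 (CD97) by 2.20 ± 0.23 and Arl5c by 2.13 ± 0.30. Runx2 was higher by 2.61 ± 0.24, and by 1.44 without other lineages. H2-Ab1 and H2-Eb1 were called but were possible free RNA. In all, 29 of the 103 higher genes were not called without other lineages, 11 of them because they were no longer fitted.

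Of 13 cytotoxic granule genes only 1, Gzmk, was called over the 4 libraries, which does not show equal levels within a library. Gzma had a ratio of CD8 alpha-beta over CD8 alpha-alpha-type cells of 7.14 in the cecum (5.89–8.65) and 0.471 in the small intestine (0.456–0.488). Gzmb had 237, 1850, 329 and 375 CPM in CD8 alpha-beta cells against 0, 3232, 131 and 717 CPM in CD8 alpha-alpha-type cells (−0.12 ± 0.33, edgeR adjusted p = 0.965). The zero allows up to 166 CPM. Ccl5 had 14905, 14657, 5126 and 5649 CPM against 5022, 24075, 3356 and 4480 CPM (0.52 ± 0.30, edgeR adjusted p = 0.669). Itgae, with 105, 613, 158 and 207 CPM against 55.2, 924, 208 and 273 CPM, was also not called (−0.40 ± 0.16, edgeR adjusted p = 0.386). No proliferation gene of 9 fitted was called, and 2 of 25 dissociation and immediate early genes were, Dusp2 and Zfp36. Without colon neither was called (edgeR adjusted p = 0.259 and 0.16), and Zfp36 was not without cecum (0.0637).

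The genes lower in CD8 alpha-beta cells included adaptors and receptors of natural intraepithelial and NK-type cells. Fcer1g had 223, 706, 759 and 907 CPM in CD8 alpha-beta cells against 552, 2755, 1307 and 1835 CPM in CD8 alpha-alpha-type cells of stomach, small intestine, cecum and colon. It was lower in every library (−1.18 ± 0.19, edgeR adjusted p = 0.00223), and −1.91 with at least 2 Cd8b1 UMIs (edgeR adjusted p = 3.33e-05). Xcl1, a chemokine that attracts cross-presenting dendritic cells, had 684, 369, 552 and 837 CPM against 1214, 736, 1035 and 1883 CPM (edgeR adjusted p = 0.00242). Its log2 fold change was −0.91 ± 0.15, and it was lower in every library. Klra5 was lower by a log2 value of −2.41 ± 0.28, with 14.0, 22.3, 9.68 and 85.6 CPM against 0, 245, 79.3 and 338 CPM, the stomach value of the second class allowing up to 166 CPM. Cela1 (−1.99 ± 0.34), Cd200r4 (−1.46 ± 0.27), Capn3 (−1.39 ± 0.21), Elmo2 (−1.20 ± 0.29), Ddc (−1.13 ± 0.28), Lat2 (−1.04 ± 0.21), Cd7 (−0.90 ± 0.19), Dapk2 (−0.90 ± 0.17), Serpina3g (−0.88 ± 0.20) and Acot7 (−0.72 ± 0.17) were lower in all 4 libraries. In stomach, where the CD8 alpha-alpha-type cells also held mast cell transcripts, all of them but Cd7 rested on few UMIs in those cells. The UMI counts were 1 for Ddc, 2 for Cela1, Cd200r4, Elmo2 and Serpina3g, 3 for Capn3 and Acot7, 4 for Dapk2 and 5 for Lat2. Without colon none of these genes, nor Cd7, Fcer1g and Xcl1, was called, at edgeR adjusted p from 0.0936 (Elmo2) to 0.639 (Ddc). Without small intestine Cela1, Cd200r4, Elmo2, Ddc, Lat2, Cd7, Dapk2, Serpina3g and Acot7 were not called (0.0549 for Dapk2 to 0.431 for Elmo2), and without cecum Elmo2, Ddc, Xcl1, Serpina3g and Acot7 were not (0.0705 for Ddc to 0.275 for Acot7).

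Of 14 natural intraepithelial genes, 2 were called lower, Fcer1g and Cd200r1, with none higher and a median log2 ratio of −0.66. With at least 2 Cd8b1 UMIs, 10 of 13 were called lower, against 56 of all 4153 genes fitted at that setting. Cd160, a receptor of natural and activated intraepithelial cells, had 230, 531, 794 and 656 CPM in CD8 alpha-beta cells against 662, 796, 972 and 1133 CPM (−0.57 ± 0.15, edgeR adjusted p = 0.0711, and −0.90 at an adjusted p of 0.00181 with at least 2 Cd8b1 UMIs). Ikzf2 had 6.98, 264, 894 and 620 CPM against 442, 1030, 1013 and 910 CPM (−0.92 ± 0.30, edgeR adjusted p = 0.184, and −1.65 at 0.00102 with at least 2 Cd8b1 UMIs). Klra7 had −0.28 ± 0.19 (edgeR adjusted p = 0.755) and −1.65 with at least 2 Cd8b1 UMIs (0.00312). Tyrobp was not called (edgeR adjusted p = 0.1) but was without other lineages (−1.65, edgeR adjusted p = 3.58e-06). Residency genes had 2 of 19 lower, Xcl1 and Hic1, and none higher. NK-type receptors had 2 of 7 lower, Klra5 and Klrb1a, and none higher. Ctla4 was higher (1.49 ± 0.23) and Cd96 lower (−0.72 ± 0.15) among 8 inhibitory receptor genes, and neither was called without colon (edgeR adjusted p = 0.0631 and 0.207), nor was Cd96 without small intestine (0.108) or cecum (0.214). Without small intestine, cecum or colon, Cd200r1 (edgeR adjusted p = 0.096, 0.0728 and 0.351) and Hic1 (0.0925, 0.146 and 0.694) were not called, and Klrb1a was not called without cecum (0.0695) or colon (0.197). Of 19 interferon response genes, Ifi27l2a, Slfn1 and Bst2 were higher, and of 12 cytokine receptor genes Tnfrsf9 was lower. Bst2 was not called without other lineages (log2 fold change 0.30, edgeR adjusted p = 0.699) or without colon (0.169). Ifi27l2a and Tnfrsf9 were not called without cecum (edgeR adjusted p = 0.105 and 0.0708) or colon (0.171 and 0.301). Of the list genes called by edgeR, DESeq2 did not call Themis, Cd200r1, Lef1, Satb1, Ahnak, Hic1, Ccr9, Cxcr4 and Bst2 (DESeq2 adjusted p from 0.0794 to 0.619). Among the named lower genes it did not call Cela1, Elmo2, Ddc and Serpina3g (DESeq2 adjusted p = 0.0769, 0.222, 0.202 and 0.0993). Ddc was also not called without other lineages (edgeR adjusted p = 0.0558).

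**Figure D4:**
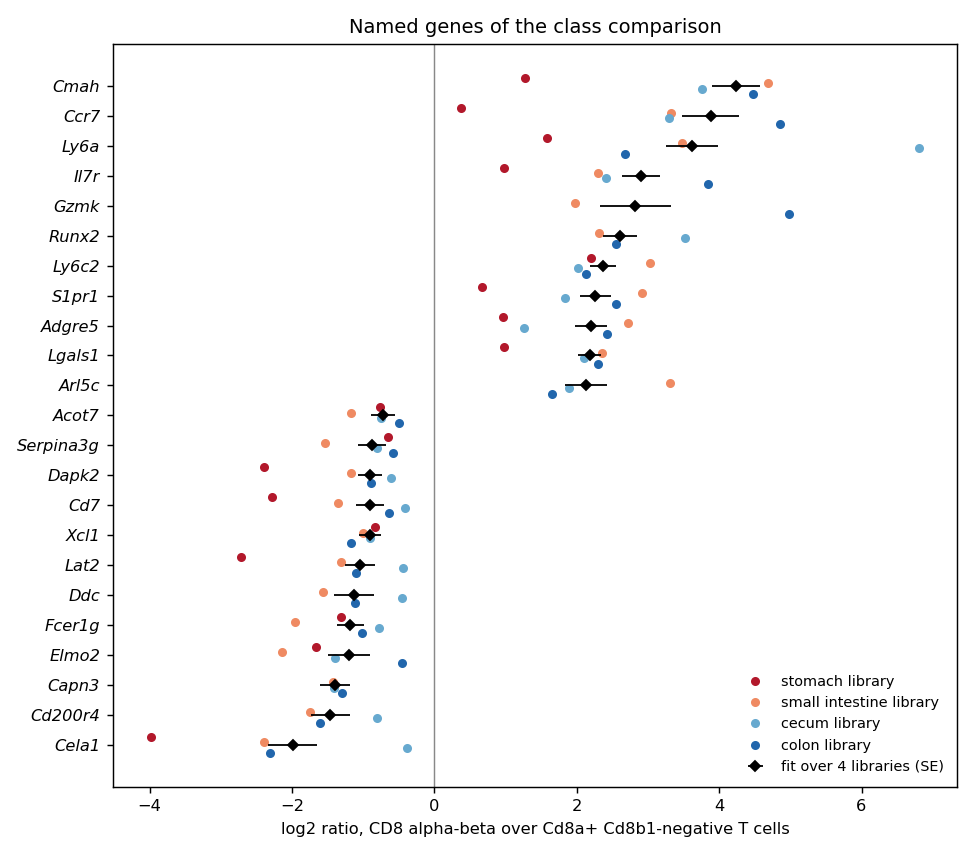
Log2 ratio (horizontal) of CD8 alpha-beta over CD8 alpha-alpha-type cells for the named genes (vertical). Circles are CPM ratios within a library, left out where a class had 0 UMIs, and diamonds are the fitted value over 4 libraries with its SE. The circles of higher genes lie right of 0 and those of lower genes left of it, and Cmah has the largest fitted value (4.24).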

How the data were processed

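Per the labels' protocols the libraries were made with the 10x 3′ v2 chemistry. Per the submitters' processing notes the tools were Cell Ranger and Seurat 3.0.0. The deposited values are whole UMI counts per symbol and barcode, 3171 to 4244 barcodes a library, and no Rpl, Rps or mt- symbol is listed. The genome build is not given in the sources used here, and coordinates come from GRCm38. The members, gene lists and tests were chosen with earlier results of these data known. UMIs were summed per library and class with Python 3.11.15 and scipy 1.17.1. Intervals are at 95% and cover counting error only. No doublet caller was run. Cells were thinned to 1000 UMIs for the shares of Itgae, Gzma, Ccr9, Ly6c2, Ccr7 or Lef1, and Fcer1g. Shares of other genes, and shares given beside CPM, are unthinned unless stated.

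The class comparison used edgeR 4.0.16 in R 4.3.3 (TMM, filterByExpr, library as block, adjusted p under 0.05). Its newer quasi-likelihood fit (prior df 12, residual df 3) was taken after the data were seen in place of the legacy fit (prior df 128), which gave smaller p-values. DESeq2 1.42.0 was an alternative. Both classes of a library share its droplets and sequencing, and the labels do not say whether the 4 libraries came from separate mice, so p-values measure the spread between these libraries. The steps were tested on simulated data. Alternatives changed the Cd8b1 minimum, depth, weighting, scaling, filters, tool, block and libraries.

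Genes named in a tissue comparison were the 10 highest and 10 lowest by the interval bound nearest 1, at least 2-fold, with no cell holding over 30% of the UMIs. In the class comparison they were the 12 called genes of largest change each way that moved alike in all 4 libraries. Members of gene lists were named beside these as examples. A few genes are not reported here. They were left out of the gene lists, the grouped share and the named genes after the data were seen, and the fits over all genes kept them.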

Additional observations from a re-analysis of the deposited data

Results flagged for a closer look

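These results were picked among the fitted genes of the lists, in small intestine, cecum and colon only. Stomach held too few CD8 alpha-alpha-type cells for this. For the genes picked, CD8 alpha-beta cells were at least 2-fold above CD8 alpha-alpha-type cells in 1 library and at least 2-fold below in another. Each ratio had a counting interval that excluded 1. The difference between libraries was not tested. Gzma, a granule protease, had 726 CPM in CD8 alpha-beta cells of the cecum, from 225 UMIs, against 102 CPM in CD8 alpha-alpha-type cells (log2 ratio 2.84). In the small intestine it had 12263 against 26012 CPM (log2 ratio −1.08), and in colon 512 against 468 CPM (0.13). After thinning, 5.59% of the cecum CD8 alpha-beta cells held Gzma, and 16.3% of those with at least 2 Cd8b1 UMIs.

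Cell cycle genes went the other way between the same libraries. Mki67, a marker of cycling cells, had 248 against 59.0 CPM in the small intestine (log2 ratio 2.07) and 3.23 CPM, from 1 UMI, against 63.5 CPM in the cecum (−4.30). Top2a, a DNA topoisomerase, had 213 against 72.5 CPM (1.55) and 9.68 CPM, from 3 UMIs, against 89.8 CPM (−3.21). Stmn1, a microtubule regulator, had 134 against 36.3 CPM (1.88) and 6.46 CPM, from 2 UMIs, against 60.6 CPM (−3.23). Birc5, the survivin gene, had 92.2 against 23.6 CPM (1.96) and 16.1 CPM, from 5 UMIs, against 43.0 CPM (−1.41). In colon the intervals of all 4 cell cycle genes included 1.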

How the results depend on the processing

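With at least 2 Cd8b1 UMIs the counts were 371 genes higher in small intestine than colon, 133 higher and 130 lower in cecum than colon, and 345 lower in stomach than colon. The share of T cells was then 2.41% in the small intestine, 1.43% in the cecum and 1.88% in colon, and with thinning it was 2.85%, 2.79% and 2.51%. Unthinned, Itgae was found in 66.7% of small intestine and 36.0% of colon members, and Ccr7 or Lef1 in 36.1% of cecum and 40.0% of colon members (39.7% thinned with at least 2 Cd8b1 UMIs). In the class comparison the counts higher and lower were 210 and 49 with no filter on low counts, 3 and 0 with no library block (the replicate block of this design), and 179 and 73 with the legacy fit. Lower genes numbered 15 with DESeq2, 56 with at least 2 Cd8b1 UMIs and 52 without barcodes of high depth. Leaving out 1 library gave 32 to 198 higher and 0 to 88 lower genes. With the median ratio set to 1, the counts were 568 and 559 (stomach against small intestine), 591 and 467 (small intestine against colon) and 480 and 487 (stomach against colon). The legacy and other-lineage settings were chosen after seeing the data. Of 3168 values for named and called list genes of the tissue comparisons, 2971 kept their direction and side of the limit, 187 fell short of it and 10 changed sign. A gene no longer measured at a setting gave no value there, so such losses are not counted. Some settings hardly changed the cells, as a minimum of 1000 UMIs left out 1 member in the cecum and 1 in colon. Without other lineages the log2 ratios that changed sign were those of Bst2 in stomach against small intestine (1.46) and small intestine against colon (−0.21), and of Ahnak (−0.41) and Cd44 (−0.57) in the second of these. With at least 2 Cd8b1 UMIs they were Klra7 (0.11) and Xcl1 (0.34) in small intestine against colon, Hsph1 (−0.0722) and Dnajb1 (−0.18) in cecum against colon, and Dapl1 in stomach against colon (−0.25). Without barcodes of high depth it was Xcl1 in stomach against small intestine (−0.20). Of 826 values for the class comparison none changed sign and 167 lost their call. The cause of these shifts was not tested. No paired analysis was possible between tissues because each has 1 library. Depth limits the stomach most, where 0 UMIs in the 6 CD8 alpha-alpha-type cells allows up to 166 CPM.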
